A study of Homo sapiens with 15 samples.

Results

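Aminoacyl-tRNA synthetases are the enzymes that attach each amino acid to its tRNA, and 38 genes of this machinery were followed among the 60670 genes of the count table. The genes were taken by their symbols and comprised 19 genes of cytosolic synthetases, 16 of mitochondrial synthetases (symbols ending in 2) and 3 of the scaffold proteins AIMP1, AIMP2 and EEF1E1. The table lists Ensembl identifiers, and all 38 were matched to it. In HT-1080, a human fibrosarcoma cell line, RNA was sequenced in 5 groups of 3 libraries that the labels call biological replicates. Cycling cells received the vehicle DMSO and carry the time label 6 h. Senescence had been induced over 6 days by a dominant negative mutant of TRF2, which uncaps telomeres, and these cells then received DMSO or 1 uM of the kinase inhibitor GNF-7 for 6 h or 24 h. All groups were grown in tet-free serum at 5% oxygen. The libraries analysed here hold no cycling cells with GNF-7 and no cycling cells at 24 h, the labels do not say whether the cycling cells carried the TRF2 construct, and the line is a single tumour line. The labels do not say that replicates came from separate cultures, so p-values measure the spread between these libraries.

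A synthetase activates its amino acid with ATP and transfers it to the matching tRNA, and the charged tRNA is what the ribosome uses. Uncharged tRNA is the classical signal for GCN2 (gene EIF2AK4), the kinase named in the study's title, whose regulatory region resembles a histidyl-tRNA synthetase. GCN2 phosphorylates the initiation factor eIF2, which lowers general translation but raises translation of the transcription factor ATF4, and many cytosolic synthetase genes are textbook targets of ATF4. Mitochondria translate their own genome with a separate set of synthetases, encoded in the nucleus. GARS1 and KARS1 are exceptions that make both the cytosolic and the mitochondrial enzyme from the same gene. AIMP1, AIMP2 and EEF1E1 hold several cytosolic synthetases together in the multi-synthetase complex.

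Library totals were 25991007 to 32323393 counts. Each member had at least 32 counts in every library, and all 38 were among the 18563 genes that passed the filter on low counts. TERF2, whose mutant was expressed, was at 55.7 to 62.4 CPM (counts scaled to a common library size) in the cycling libraries and at 128 to 293 CPM in the senescent ones. Of 6 mesenchymal markers, VIM, FN1, CD44 and LGALS1 were at 493 CPM or more in every library, while S100A4 and TAGLN were at most 5.58 CPM. Of 8 markers of other cell types, PECAM1 reached 1.06 CPM and the other 7 had at most 8 counts in a library. The share of counts in mitochondrially encoded genes was 3.75 to 5.01% in cycling cells, 11.2 to 12.4% and 15.1 to 18.7% in senescent vehicle cells at 6 h and 24 h, and 13.2 to 15.3% and 22.6 to 24.1% after GNF-7. Fits without these genes were among the alternatives listed in the methods. In them 7245 genes had an edgeR adjusted p under 0.05 with GNF-7 at 6 h and 10955 at 24 h. With these genes kept the numbers were 7286 and 10940. Some members moved across that threshold, among them QARS1 at 6 h (log2 fold change -0.091) and HARS2 in senescence (-0.115), which lost their calls. Any other part of this share in the results below was not tested.

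ATF4 binds, with a C/EBP partner, elements with the core TGATGNAA, so the promoter windows of the members were searched for these letters on both strands. RefSeq windows (GRCh38.p14, 250 bases before to 50 after a transcription start) were at hand for 33 of the 38 members. VARS1, LARS1, YARS1, AARS2 and VARS2 were not searched. The letters were found in 8 of the 33 (24.2%), against 4.46% of all 27305 genes in the RefSeq table. By list they were in 7 of 16 cytosolic genes (43.8%), in 1 of 14 mitochondrial genes (7.14%) and in 0 of 3 scaffold genes. The stricter form TGATGCAA, which is contained in the first, was in 6 of 33 members (18.2%) and in 1.08% of all genes. The 8 matches are printed because 7 of these genes rose with GNF-7 and 1 fell, as described below. Each line reads 5′ to 3′ on the strand that carries the motif, with the motif in capitals.
AARS1: tctaacttggcTGATGCAActgcgagaaaa
CARS1: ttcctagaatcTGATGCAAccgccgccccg
GARS1: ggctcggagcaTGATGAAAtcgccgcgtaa
IARS1: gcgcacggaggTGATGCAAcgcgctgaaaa
MARS1: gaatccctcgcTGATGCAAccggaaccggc
NARS1: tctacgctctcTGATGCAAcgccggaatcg
TARS1: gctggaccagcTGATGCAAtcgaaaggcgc
YARS2: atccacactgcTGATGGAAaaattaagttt
The stretch of AARS1 is at chr16:70289675-70289704, on the plus strand and opposite to the gene, with the motif starting 187 bases before the RefSeq start. That of CARS1 is at chr11:3057407-3057436 on the plus strand. Its motif begins 2 bases before the start in the gene's direction and runs across it. That of GARS1 is at chr7:30594834-30594863 on the minus strand, 33 bases before the start. That of IARS1 is at chr9:92293692-92293721 on the plus strand, 13 bases before the start. That of MARS1 is at chr12:57488053-57488082 on the minus strand. Its motif begins 4 bases before the start in the gene's direction and also runs across it. Those of NARS1 (chr18:57621804-57621833, minus strand) and TARS1 (chr5:33440956-33440985, minus strand) fall 15 and 3 bases after the start, in the first exon. That of YARS2 is at chr12:32756076-32756105 on the minus strand, 197 bases before the start. Such a match is a description of letters and not a measured binding site.

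The main comparison asked what GNF-7 did to the synthetase genes of senescent cells, against vehicle at the same time. A gene was called where the edgeR adjusted p was under 0.05. At 6 h, 12 of the 19 cytosolic synthetases rose, 4 fell and 3 were not called, while 17.9% of all genes tested were called higher and 21.4% lower. At 24 h, 12 rose and 7 fell, against 29.3% of all genes called higher and 29.7% lower. The 12 that rose were the same genes at both times, namely those for alanine (AARS1), cysteine (CARS1), glutamate and proline (EPRS1), glycine (GARS1), isoleucine (IARS1), leucine (LARS1), methionine (MARS1), asparagine (NARS1), serine (SARS1), threonine (TARS1), tryptophan (WARS1) and tyrosine (YARS1). The median log2 fold change of the 19 was 0.66 at 6 h and 0.69 at 24 h, where that of all genes was 0.01 and 0.04. Rises of at least 2-fold numbered 4 at 6 h and 7 at 24 h.

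**Figure D1:**
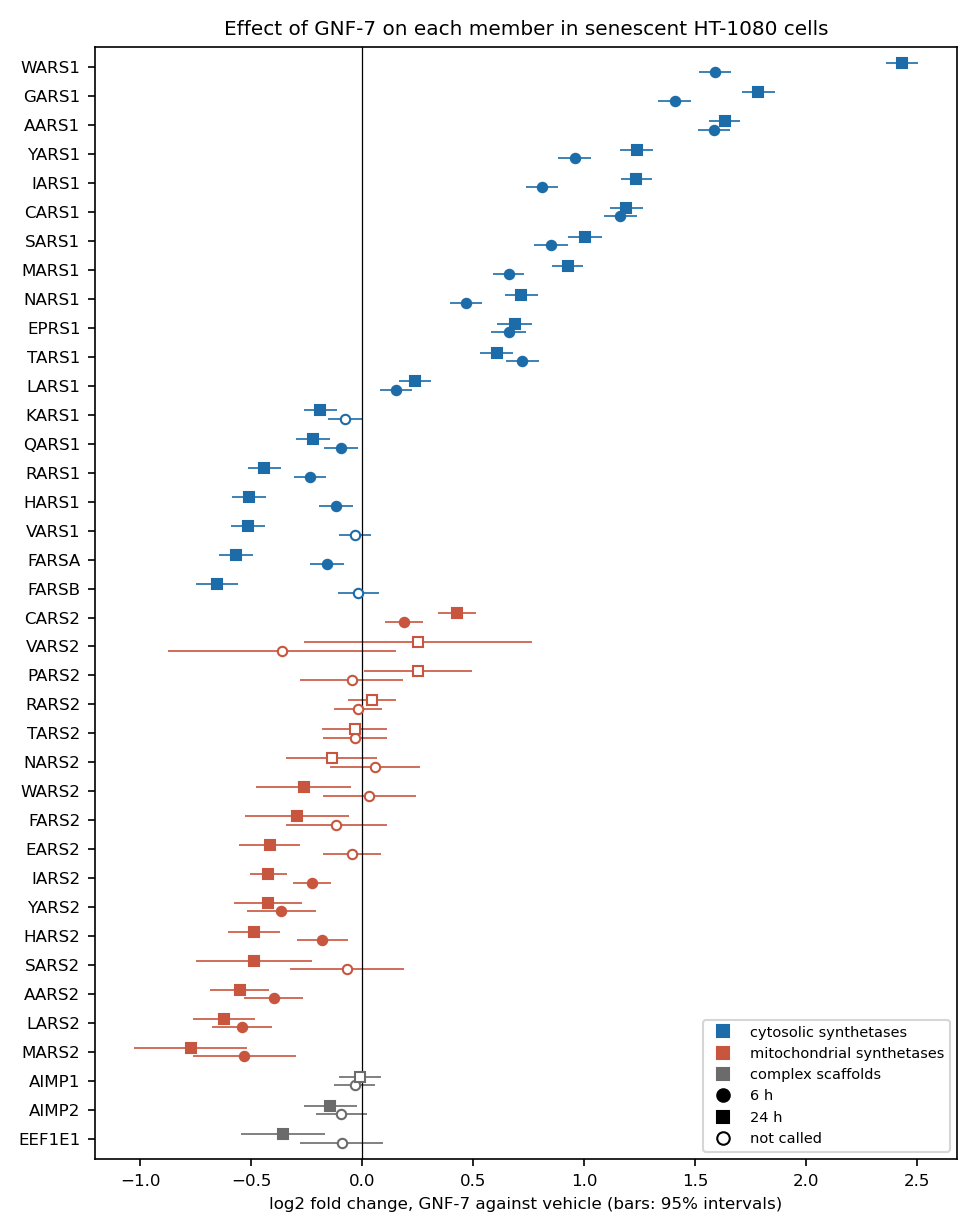
Log2 fold change of each of the 38 members with GNF-7 against vehicle in senescent cells at 6 h (circles) and 24 h (squares), with bars for 95% intervals and open symbols for members not called. The 12 cytosolic synthetases at the top lie right of 0 at both times, and of the mitochondrial synthetases called, CARS2 alone does.

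WARS1, the cytosolic tryptophanyl-tRNA synthetase, rose furthest. It was at 104, 108 and 103 CPM in the senescent vehicle libraries at 6 h, at 316, 320.3 and 311 CPM with GNF-7 at 6 h, at 99.5, 102 and 100.2 CPM in vehicle at 24 h and at 529, 551 and 546 CPM with GNF-7 at 24 h. This was a 3.01-fold rise at 6 h (log2 fold change 1.59, SE 0.037, edgeR adjusted p 2.36e-43) and a 5.39-fold rise at 24 h (log2 fold change 2.43, SE 0.037, edgeR adjusted p 2.46e-53). In each comparison the lowest GNF-7 library was far above the highest vehicle library. The exons of WARS1 overlap those of genes on the other strand over 672 bases, and whether counting used strand is not given in the sources used here.

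GARS1 and AARS1, which charge glycine and alanine tRNA, came next. GARS1 was at 192, 188 and 190 CPM in vehicle and 526, 479 and 506 CPM with GNF-7 at 6 h (log2 fold change 1.41, SE 0.038, edgeR adjusted p 6.52e-40), and at 186, 176 and 173 against 647, 596 and 600.3 CPM at 24 h (log2 fold change 1.78, SE 0.038, edgeR adjusted p 1.74e-45). AARS1 was at 138, 137 and 137 against 422, 407 and 405 CPM at 6 h (log2 fold change 1.58, SE 0.036, edgeR adjusted p 7.15e-44) and at 142, 139 and 143 against 438, 435 and 439.5 CPM at 24 h (log2 fold change 1.63, SE 0.036, edgeR adjusted p 5.38e-45). The GNF-7 libraries of both genes lay above every vehicle library, and AARS1 differed little between the times while GARS1 stood higher at 24 h. GARS1 is one of the genes that serve both compartments.

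CARS1, for cysteine, was at 96.8, 105 and 105 CPM in vehicle and 232, 228 and 226 CPM with GNF-7 at 6 h (log2 fold change 1.16, SE 0.039, edgeR adjusted p 1.73e-34). At 24 h it was at 103, 106 and 105 against 238, 243 and 237 CPM (log2 fold change 1.19, SE 0.039, edgeR adjusted p 1.71e-35). Its groups did not overlap, and it stood close to the same level with GNF-7 at both times. YARS1, for tyrosine, was at 132, 139.5 and 140.4 against 267, 265 and 267 CPM at 6 h (log2 fold change 0.96, SE 0.037, edgeR adjusted p 2.09e-31) and at 122, 124 and 119 against 294, 280.3 and 284 CPM at 24 h (log2 fold change 1.24, SE 0.038, edgeR adjusted p 1.67e-37). SARS1, for serine, was at 149, 149 and 144 against 274, 253 and 271 CPM at 6 h (log2 fold change 0.85, SE 0.039, edgeR adjusted p 6.38e-28) and at 156, 160.2 and 155 against 324, 306 and 314 CPM at 24 h (log2 fold change 1.00, SE 0.039, edgeR adjusted p 3.52e-32). Both genes were higher in every GNF-7 library than in every vehicle library of their time.

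IARS1, for isoleucine, was at 238, 249 and 241 CPM in vehicle and 437, 423 and 415 CPM with GNF-7 at 6 h (log2 fold change 0.81, SE 0.036, edgeR adjusted p 1.3e-28), and at 224, 219 and 224 against 535, 524 and 509 CPM at 24 h (log2 fold change 1.23, SE 0.036, edgeR adjusted p 1.72e-38). MARS1, for methionine, was at 203, 201 and 206 against 313, 325 and 326 CPM at 6 h and at 197, 201 and 196 against 371, 379 and 378 CPM at 24 h, with log2 fold changes of 0.66 and 0.93. Neither gene's groups overlapped. MARS1 shares 874 bases of exon with the stress gene DDIT3 and with ARHGAP9 on the other strand, and DDIT3 itself went from 23.2 to 23.8 CPM in vehicle to 152 to 157 CPM with GNF-7 at 6 h. The part of reads from that overlap in the value of MARS1 was not tested.

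The other 4 rose by less than these at 24 h. TARS1 (threonine), EPRS1 (a fused glutamyl- and prolyl-tRNA synthetase) and NARS1 (asparagine) had log2 fold changes of 0.72, 0.66 and 0.47 at 6 h and of 0.60, 0.69 and 0.72 at 24 h. LARS1, the leucyl enzyme that is also described as a leucine sensor, rose least. It was at 246, 245 and 260.3 CPM in vehicle and 277, 279 and 279 CPM with GNF-7 at 6 h (log2 fold change 0.15, SE 0.036, edgeR adjusted p 0.000466), and at 243, 244 and 237 against 292, 285 and 277 CPM at 24 h (log2 fold change 0.24, SE 0.036, edgeR adjusted p 6.01e-08). Even so its libraries did not overlap at either time.

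**Figure D2:**
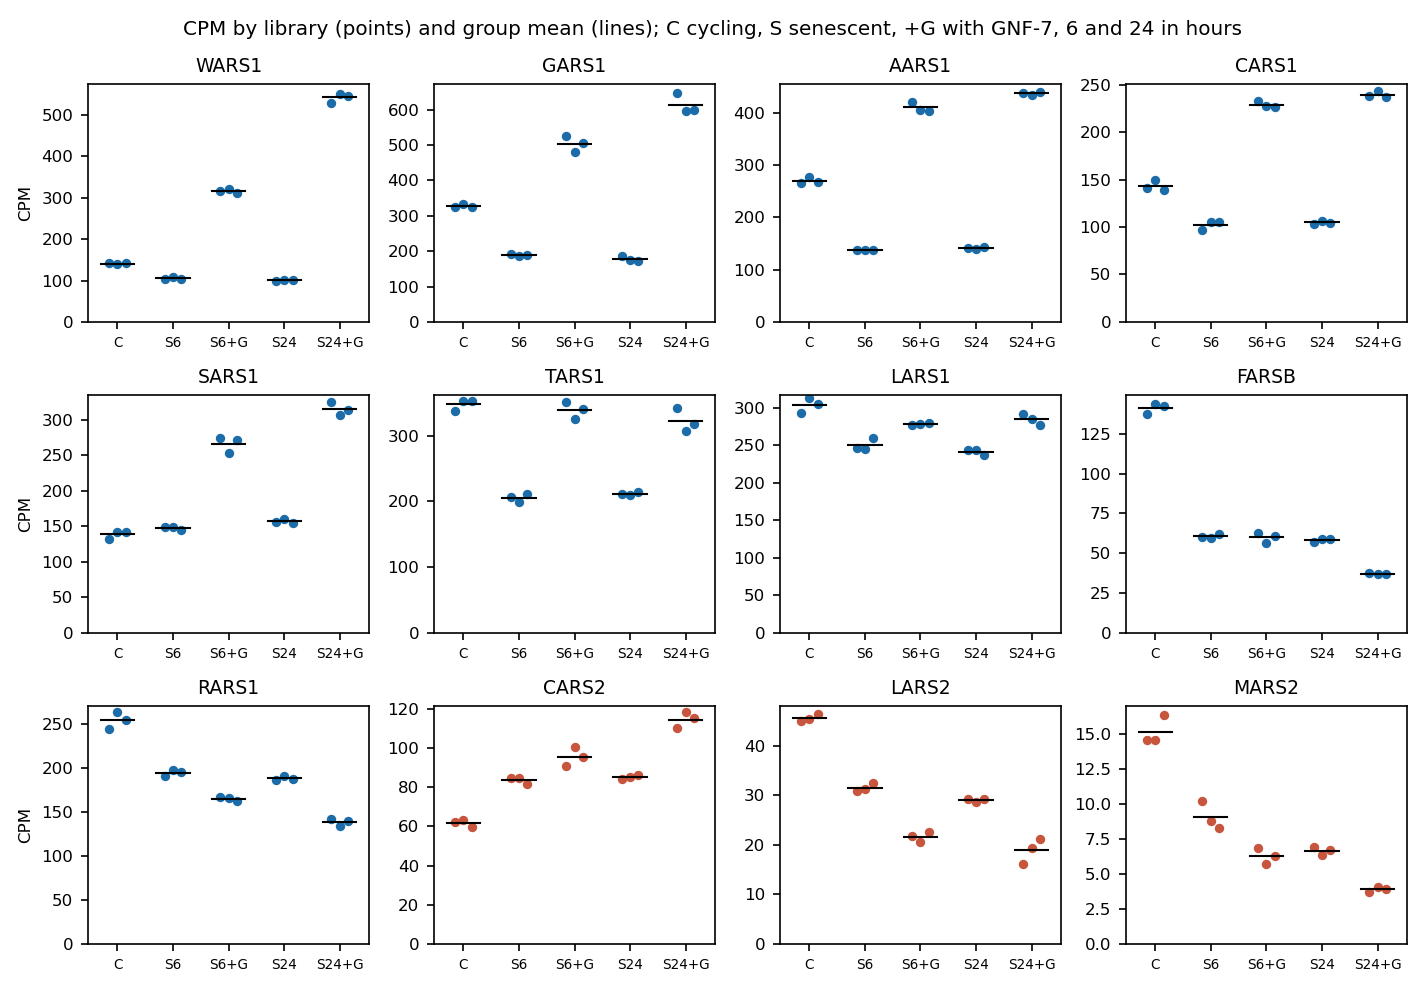
CPM of 12 members in each of the 15 libraries (points, with the mean of each group as a line), for cycling cells (C) and senescent cells (S) in vehicle or GNF-7 (+G) at 6 h or 24 h, on linear axes from 0. WARS1, GARS1, AARS1, CARS1 and SARS1 are highest in the GNF-7 groups, TARS1 is near its cycling level there, FARSB and RARS1 are lowest with GNF-7 at 24 h, and CARS2 rises where LARS2 and MARS2 fall.

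The remaining 7 cytosolic genes went the other way or stayed near vehicle, and at 24 h all 7 were called lower. They charge phenylalanine (FARSA and FARSB, the 2 subunits of one enzyme), histidine (HARS1), lysine (KARS1), glutamine (QARS1), arginine (RARS1) and valine (VARS1). FARSB was at 60.4, 59.8 and 62.05 CPM in vehicle and 62.5, 56.5 and 60.97 CPM with GNF-7 at 6 h, where it was not called (log2 fold change -0.02, SE 0.047, edgeR adjusted p 0.803), and at 56.9, 59.1 and 59.1 against 37.3, 36.99 and 36.9 CPM at 24 h (log2 fold change -0.66, SE 0.049, edgeR adjusted p 2.52e-18). FARSA, its partner subunit, was at 166, 157 and 150.3 against 145, 136 and 144 CPM at 6 h (log2 fold change -0.16, SE 0.039, edgeR adjusted p 0.000732) and at 149.5, 153 and 149.6 against 102, 101 and 102 CPM at 24 h (log2 fold change -0.57, SE 0.04, edgeR adjusted p 1.72e-19). At 24 h both subunits were lower in every GNF-7 library than in every vehicle library.

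VARS1 was at 197, 190 and 189 CPM in vehicle and 184, 188 and 191 CPM with GNF-7 at 6 h, not called, and at 189, 193 and 193 against 132, 141 and 129.8 CPM at 24 h (log2 fold change -0.52, SE 0.038, edgeR adjusted p 1.28e-18). HARS1 was at 164, 155 and 154 against 143, 146 and 146 CPM at 6 h (log2 fold change -0.12, SE 0.039, edgeR adjusted p 0.0106) and at 165, 169 and 165 against 118, 119.5 and 113 CPM at 24 h (log2 fold change -0.51, SE 0.039, edgeR adjusted p 5.27e-18). RARS1 was at 191, 198 and 195 against 167, 165 and 163 CPM at 6 h (log2 fold change -0.24, SE 0.037, edgeR adjusted p 3.89e-07) and at 186, 190.5 and 187 against 141, 134 and 139.8 CPM at 24 h (log2 fold change -0.44, SE 0.038, edgeR adjusted p 5.63e-16). The groups of RARS1 were apart at both times, while those of VARS1 overlapped at 6 h only. Without senescent vehicle replicate 1 the fall of HARS1 at 6 h was no longer called (-0.09), nor with a filter at 5 CPM (-0.07), and without that library 2 cytosolic genes in place of 4 fell.

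At 24 h QARS1 and KARS1 had the smallest falls of the 7. QARS1 was at 148, 153 and 147 CPM in vehicle and 141, 138 and 139 CPM with GNF-7 at 6 h, and at 159.7, 155 and 162 against 133, 136 and 139.7 CPM at 24 h, with log2 fold changes of -0.10 (edgeR adjusted p 0.0412) and -0.22 (edgeR adjusted p 1.4e-06). Its call at 6 h was lost under 10 of the 15 alternatives, among them each fit without vehicle replicate 1 or 2 or GNF-7 replicate 2 or 3 (-0.08 to -0.10 on the log2 scale). KARS1, which like GARS1 serves both compartments, was at 204, 200 and 207 against 200.5, 182 and 195 CPM at 6 h, not called (-0.08), and at 197, 195 and 202 against 181, 167 and 172 CPM at 24 h (log2 fold change -0.19, SE 0.038, edgeR adjusted p 1.81e-05). Without GNF-7 replicate 1 a fall of KARS1 at 6 h was called (-0.11).

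Properties that the choice of members did not use were set beside these directions, after the values had been seen. Of the 9 class I and 9 class II cytosolic enzymes (EPRS1 holds one of each and was left out), 6 and 5 rose and 3 and 4 fell at 24 h. Of the 7 synthetases of the multi-synthetase complex, EPRS1, IARS1, LARS1 and MARS1 rose and KARS1, QARS1 and RARS1 fell, and of the 12 outside it 8 rose and 4 fell. The promoter letters printed above were in 7 of the 10 cytosolic genes that rose at 24 h and had a window, and in 0 of the 6 that fell. EPRS1, SARS1 and WARS1 rose without a match in their windows.

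Among the mitochondrial synthetases more genes fell than rose. At 6 h, 1 of 16 rose, 6 fell and 9 were not called, and at 24 h 1 rose, 10 fell and 5 were not called, against 21.4% and 29.7% of all genes called lower. With a filter at 5 CPM 3 were called higher at 24 h. Without vehicle replicate 2 of 24 h 2 were, CARS2 and PARS2 (0.33). The median log2 fold change was -0.09 at 6 h and -0.36 at 24 h. In bulk RNA, fewer cells with a transcript and less of that transcript per cell cannot be told apart. The exception in direction was CARS2, the mitochondrial cysteinyl enzyme. It was at 84.6, 84.8 and 81.8 CPM in vehicle and 90.8, 100.3 and 95.3 CPM with GNF-7 at 6 h (log2 fold change 0.19, SE 0.044, edgeR adjusted p 0.00035), and at 84.1, 85.3 and 86.1 against 110.2, 118 and 115 CPM at 24 h (log2 fold change 0.43, SE 0.044, edgeR adjusted p 4.4e-13). Every GNF-7 library of CARS2 was above every vehicle library of its time.

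The 6 that fell at both times were AARS2, HARS2, IARS2, LARS2, MARS2 and YARS2. MARS2, for methionine, was at 10.2, 8.78 and 8.29 CPM in vehicle and 6.87, 5.72 and 6.27 CPM with GNF-7 at 6 h (log2 fold change -0.53, SE 0.118, edgeR adjusted p 0.00017), and at 6.96, 6.38 and 6.70 against 3.74, 4.06 and 3.92 CPM at 24 h (log2 fold change -0.77, SE 0.13, edgeR adjusted p 5.84e-07). LARS2, for leucine, was at 30.8, 31.2 and 32.5 against 21.7, 20.6 and 22.6 CPM at 6 h (log2 fold change -0.54, SE 0.069, edgeR adjusted p 1.86e-09) and at 29.3, 28.7 and 29.2 against 16.1, 19.4 and 21.1 CPM at 24 h (log2 fold change -0.62, SE 0.071, edgeR adjusted p 1.78e-11). The groups of both genes were apart at both times, although the 3 GNF-7 libraries of LARS2 at 24 h spread more than its vehicle libraries.

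AARS2, for alanine, was at 33.7, 31.1 and 34.4 CPM in vehicle and 25.7, 24.8 and 24.7 CPM with GNF-7 at 6 h (log2 fold change -0.40, SE 0.067, edgeR adjusted p 1.2e-06) and at 29.7, 31.7 and 34.7 against 21.9, 21.9 and 21.7 CPM at 24 h (log2 fold change -0.55, SE 0.068, edgeR adjusted p 2.07e-10). IARS2, for isoleucine, the mitochondrial synthetase with the most counts, was at 129, 130.2 and 138 against 119, 107 and 114 CPM at 6 h (log2 fold change -0.23, SE 0.043, edgeR adjusted p 1.42e-05) and at 136, 126 and 127 against 101, 97.3 and 91.8 CPM at 24 h (log2 fold change -0.42, SE 0.043, edgeR adjusted p 5.21e-13). The groups did not overlap. YARS2, for tyrosine, fell by 0.36 at 6 h and 0.42 at 24 h on the log2 scale. It is the mitochondrial gene whose window holds the motif letters, in the form TGATGGAA. HARS2, for histidine, whose exons overlap those of its neighbour HARS1 on the other strand, fell by 0.18 and 0.49. The call of HARS2 at 6 h was lost without vehicle replicate 2 or GNF-7 replicate 1 (-0.13 and -0.14).

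Of the others, EARS2 (glutamate), SARS2 (serine), FARS2 (phenylalanine) and WARS2 (tryptophan) fell at 24 h alone, with log2 fold changes of -0.42, -0.49, -0.29 and -0.26. Whether that differed from 6 h was tested below. SARS2 was at 4.91 to 8.93 CPM in the senescent libraries. It shares 1492 bases of exon with AC011455.2 on its own strand and 349 with MRPS12 on the other, and the effect on its value was not tested. FARS2 and WARS2 were at 10.8 CPM or less in every senescent library, and their calls were lost under 5 of 15 alternatives each. Among these were the fits without vehicle replicate 3 (FARS2, -0.21), without vehicle replicate 2 (WARS2, -0.18) and without GNF-7 replicate 1 or 3 (-0.23 to -0.27 for the 2 genes). NARS2, PARS2, RARS2, TARS2 and VARS2 were called at neither time. RARS2, for arginine, was at 41.3 to 46.9 CPM across the 12 senescent libraries. VARS2, the member with the fewest counts, was at 1.13 to 2.15 CPM there and shares 1858 bases of exon with GTF2H4 on its own strand, so a change in it would be hard to detect at this depth.

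The 3 scaffold genes were not called at 6 h by edgeR, DESeq2 or limma voom, and 0 had an unadjusted edgeR p under 0.05. AIMP1 was at 72.1, 64.5 and 69.5 CPM in vehicle and 67.5, 64.1 and 69.4 CPM with GNF-7 at 6 h, and at 67.9, 65.6 and 66.6 against 65.3, 67.4 and 65.97 CPM at 24 h (-0.04 and -0.01 on the log2 scale, neither called). AIMP2 was at 37.4, 36.7 and 37.4 against 35.6, 34.5 and 34.2 CPM at 6 h (-0.10, not called) and at 33.5, 29.7 and 30.03 against 28.7, 26.8 and 29.02 CPM at 24 h (log2 fold change -0.14, SE 0.061, edgeR adjusted p 0.0373). EEF1E1 was at 10.9, 11.2 and 10.5 against 11.2, 9.67 and 9.77 CPM at 6 h (-0.09, not called) and at 11.1, 12.1 and 11.3 against 9.09, 9.94 and 7.87 CPM at 24 h (log2 fold change -0.36, SE 0.097, edgeR adjusted p 0.00129). The libraries of AIMP1 overlapped at both times. Those of AIMP2 were apart at both times and those of EEF1E1 at 24 h, by small margins. The fall of AIMP2 at 24 h was lost without vehicle replicate 1 (-0.09) or GNF-7 replicate 2 (-0.11). AIMP2 shares 532 bases with EIF2AK1 on the other strand, and EEF1E1 shares 393 with a read-through gene on its own.

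The cytosolic and mitochondrial enzymes for the same amino acid were then set side by side, as a description without a test. There were 17 pairs, in which FARSA and FARSB share FARS2, and EPRS1 stands against both EARS2 and PARS2. The cytosolic log2 fold change was above the mitochondrial one in 15 pairs at 6 h, by at least 1 in 5 of them. At 24 h it was above in 12 pairs, by at least 1 in 7. These counts go by sign alone, whatever the size of the gap. That of histidine was 0.06 at 6 h and -0.02 at 24 h, with SEs of 0.039 (HARS1) and 0.059 (HARS2) at 6 h. The widest gap was that of WARS1 over WARS2 (2.69 at 24 h), followed by that of AARS1 over AARS2 (2.185). Methionine (1.70), tyrosine (1.66), isoleucine (1.66), serine (1.49) and glutamate (1.10) made up the rest of the 7. The pairs where the mitochondrial value was the higher one at 24 h were those of valine, arginine, phenylalanine (both subunits) and histidine, each with a cytosolic gene that fell.

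**Figure D3:**
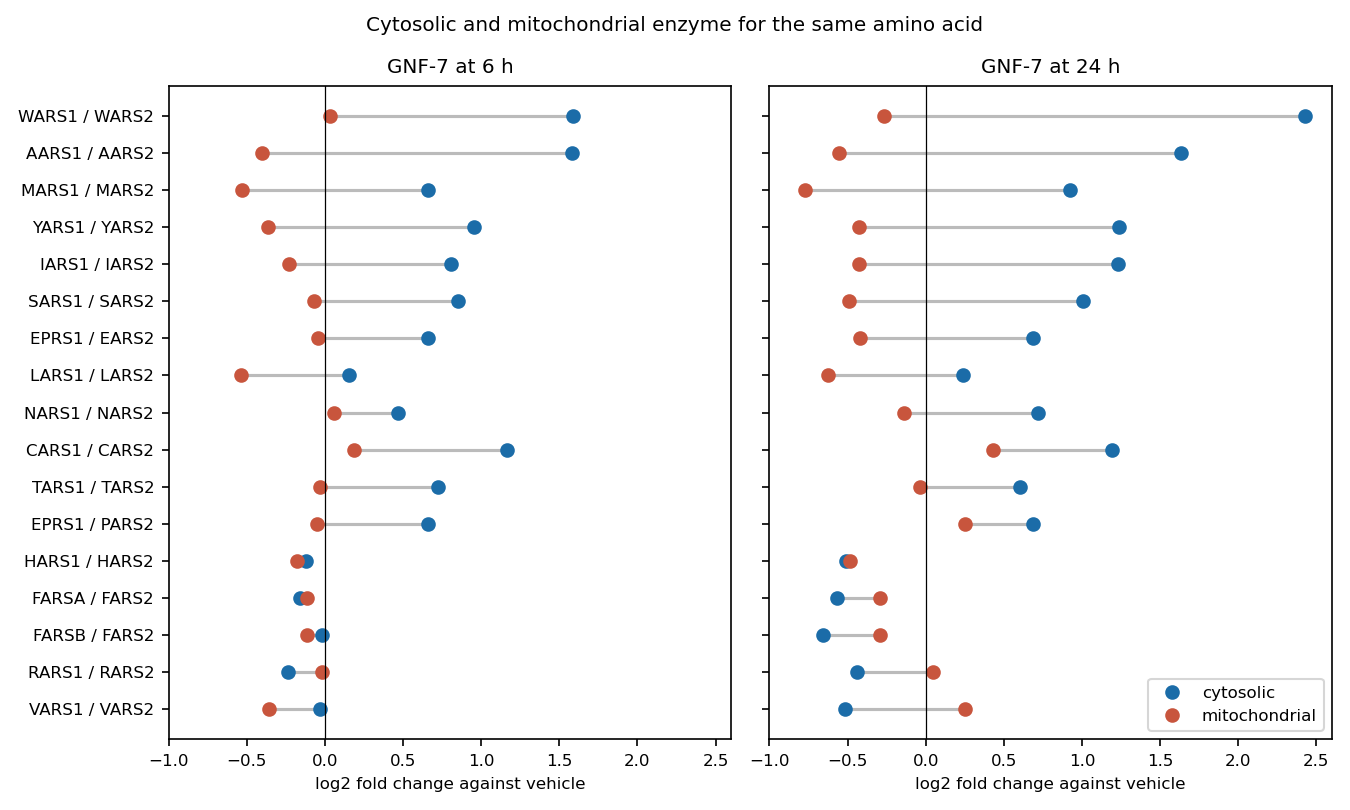
Log2 fold changes with GNF-7 against vehicle at 6 h (left) and 24 h (right) of the cytosolic (blue) and mitochondrial (red) synthetase for the same amino acid, with pairs in the order of their gap at 24 h and a grey line for the gap. The gaps run from 2.69 for WARS1 over WARS2 at the top to -0.77 for VARS1 against VARS2 at the bottom.

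Summed over the 19 genes, the cytosolic synthetases held 3281 to 3301 CPM in the 3 senescent vehicle libraries at 6 h and 4949 to 5147 CPM with GNF-7. At 24 h they held 3190 to 3212 CPM in vehicle and 5396 to 5568 CPM with GNF-7. The 16 mitochondrial genes held 488 to 497 CPM and 450.0 to 455 CPM at 6 h, and 474 to 492 CPM and 425 to 433 CPM at 24 h. The ratio of the sums went from 6.62 to 6.73 in vehicle to 11 to 11.4 with GNF-7 at 6 h, and from 6.54 to 6.77 to 12.5 to 13.1 at 24 h. With counts divided by merged exon length, the ratio went from 5.59 to 5.72 to 9.18 to 9.48 at 6 h and from 5.53 to 5.76 to 10.5 to 10.9 at 24 h. Cycling cells lay between, with a ratio of CPM sums of 7.86 to 7.92.

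**Figure D4:**
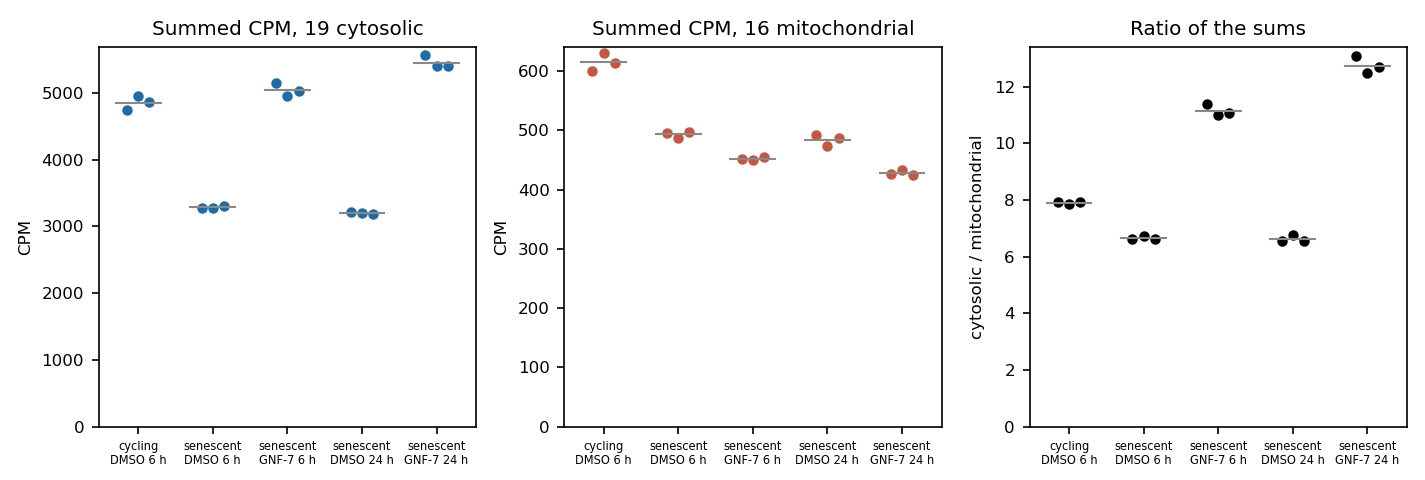
Summed CPM of the 19 cytosolic synthetases, of the 16 mitochondrial synthetases and the ratio of the sums in each library (points, with group means as lines), for the 5 groups, on axes from 0. The GNF-7 libraries have the highest ratios (11 to 13.1) and the senescent vehicle libraries the lowest (6.54 to 6.77).

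The next question was whether the log2 effect of GNF-7 on a gene differed by time. The interaction of the 4 senescent groups tests this. Higher and lower go by sign here. A lower effect is a further fall in a gene that fell and a smaller rise in one that rose. Of the cytosolic genes 7 had a higher effect at 24 h, 5 a lower one and 7 were not called, where 12.8% of all genes were called higher and 18.0% lower. WARS1 gained most, with an effect 0.84 higher at 24 h (SE 0.051, edgeR adjusted p 2.71e-21). IARS1 (0.42) and GARS1 (0.38) followed, and YARS1, MARS1, NARS1 and SARS1 gained 0.15 to 0.28. The gain of SARS1 (0.15, edgeR adjusted p 0.025) was lost under 8 of 21 alternatives, among them the fits without vehicle replicate 1 or 2 or GNF-7 replicate 2 of 6 h and without vehicle replicate 1 or 3 or GNF-7 replicate 1 of 24 h (0.11 to 0.14). AARS1, CARS1, EPRS1, LARS1 and TARS1, which also rose at both times, were not called here, with AARS1 at 0.05 (95% interval -0.05 to 0.15) and CARS1 at 0.03 (-0.08 to 0.14). A lower effect at 24 h was called for TARS1 and KARS1 without GNF-7 replicate 1 of 24 h (-0.16 and -0.145) or replicate 2 of 6 h (-0.15 and -0.16), and for QARS1 without vehicle replicate 2 of 24 h (-0.15).

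The 5 cytosolic genes with a lower effect at 24 h were FARSB (-0.64, SE 0.068), VARS1 (-0.48), FARSA (-0.41), HARS1 (-0.39) and RARS1 (-0.21). Each of them was further below vehicle at 24 h than at 6 h. Of the mitochondrial genes, EARS2 (-0.37), HARS2 (-0.31) and IARS2 (-0.20) had a lower effect and CARS2 a higher one (0.24, SE 0.062), and 12 were not called. Without GNF-7 replicate 3 of 24 h the lower effect of IARS2 was no longer called (-0.16). The falls of SARS2, FARS2 and WARS2 at 24 h are among those 12, so their effects are not shown to differ between the times. That of SARS2 was called lower at 24 h without vehicle or GNF-7 replicate 2 of 24 h or GNF-7 replicate 1 of 6 h (-0.51 to -0.53). None of the 3 scaffold genes was called by edgeR, DESeq2 or limma voom, and 0 had an unadjusted edgeR p under 0.05. Over the members the log2 fold changes at the 2 times, which share no library, had a Pearson correlation of 0.945 and a Spearman correlation of 0.824 (n = 38 genes of 1 set of libraries, without a test). They were 0.966 and 0.916 over the 19 cytosolic genes and 0.62 and 0.715 over the 16 mitochondrial genes.

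The senescence comparison, in vehicle at 6 h, showed a different picture from that of the drug, since cytosolic and mitochondrial genes were mostly lower in senescent cells alike. Of the cytosolic synthetases 18 fell and 1 rose, of the mitochondrial ones 10 fell, 1 rose and 5 were not called, and all 3 scaffold genes fell. Of all genes, 34.4% were called lower and 35.6% higher. The median log2 fold change was -0.58 for the cytosolic and -0.295 for the mitochondrial list, against 0.06 for all genes. This comparison shares the senescent vehicle libraries with that of GNF-7 at 6 h, so a library that is low there lowers one and raises the other.

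FARSB fell furthest among cytosolic genes, from 138, 144 and 142 CPM in the cycling libraries to 60.4, 59.8 and 62.05 CPM in the senescent ones (log2 fold change -1.22, SE 0.045, edgeR adjusted p 1.98e-33). AARS1 went from 266, 278 and 268 to 138, 137 and 137 CPM (log2 fold change -0.98, SE 0.036, edgeR adjusted p 8.39e-34) and GARS1 from 324, 332 and 324 to 192, 188 and 190 CPM (log2 fold change -0.79, SE 0.038, edgeR adjusted p 1.35e-27). No senescent library of these 3 genes reached the cycling level. SARS1 was the exception, at 132, 142 and 142 CPM in cycling and 149, 149 and 144 CPM in senescent cells (log2 fold change 0.09, SE 0.039, edgeR adjusted p 0.0467). That call was lost in 6 of 15 alternatives, in 5 of them by leaving out 1 library (without cycling replicate 1 or 2 or any 1 of the senescent replicates, 0.05 to 0.10). The other 15 fell by 0.11 (HARS1) to 0.76 (TARS1) on the log2 scale. The fall of HARS1 was lost without cycling replicate 2 or senescent replicate 3 (-0.09 in both) and its sign turned with scaling by total counts (0.03) or a filter at 5 CPM (0.045). With total counts the all-gene median was 0.195 in place of 0.06.

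Of the mitochondrial synthetases, NARS2, for asparagine, fell from 20.3, 22.03 and 19.9 CPM in cycling to 8.94, 8.999 and 9.47 CPM in senescent cells (log2 fold change -1.18, SE 0.097, edgeR adjusted p 5.72e-17). WARS2 went from 15.7, 17.4 and 15.4 to 8.94, 9.35 and 10.8 CPM (log2 fold change -0.74, SE 0.102, edgeR adjusted p 3.23e-09) and MARS2 from 14.6, 14.6 and 16.4 to 10.2, 8.78 and 8.29 CPM (log2 fold change -0.74, SE 0.11, edgeR adjusted p 2.37e-08). In all 3 the groups were apart. CARS2 rose, from 62.5, 63.1 and 59.7 to 84.6, 84.8 and 81.8 CPM (log2 fold change 0.44, SE 0.046, edgeR adjusted p 3.45e-13). So CARS2 rose in senescence and again with GNF-7, while its cytosolic counterpart CARS1 fell in senescence (-0.48) and rose with GNF-7. AARS2, EARS2, HARS2, IARS2, LARS2, TARS2 and YARS2 fell by 0.13 to 0.72, of which HARS2 lost its call under 11 of 15 alternatives, among them the fits without cycling replicate 2 or 3 or senescent replicate 1 or 3 (-0.09 to -0.13). AARS2 lost its call with scaling by total counts (-0.13) or a filter at 5 CPM (-0.115). FARS2, PARS2, RARS2, SARS2 and VARS2 were not called, although FARS2 was called lower without cycling replicate 3 or senescent replicate 1 (-0.32 in both). EEF1E1 had the largest fall of all members, from 27.1, 26.8 and 27.4 to 10.9, 11.2 and 10.5 CPM (log2 fold change -1.31, SE 0.089, edgeR adjusted p 1.53e-20). AIMP2 went from 52.9, 55.5 and 52.95 to 37.4, 36.7 and 37.4 CPM (-0.53) and AIMP1 from 79.96, 86.4 and 86.3 to 72.1, 64.5 and 69.5 CPM (-0.29), and the groups of both were apart.

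To see where GNF-7 left these genes relative to cycling cells, the senescent GNF-7 libraries at 6 h were compared with the cycling ones, a comparison in which senescence and drug cannot be told apart. Of the cytosolic genes 7 were higher than in cycling cells, 9 lower and 3 not called, and of the mitochondrial ones 1 was higher, 11 lower and 4 not called. All 3 scaffold genes were lower. Of all genes, 39.6% were called higher and 36.1% lower. WARS1 stood 2.24-fold above cycling cells, at 316, 320.3 and 311 against 142, 139 and 142 CPM (log2 fold change 1.16, SE 0.036, edgeR adjusted p 1.15e-37). SARS1 (0.94), CARS1 (0.68), GARS1 (0.62), AARS1 (0.60), YARS1 (0.34) and IARS1 (0.09) were also above it. With a filter at 5 CPM 12 cytosolic genes were called higher than in cycling cells. The rise of IARS1 over cycling cells was lost without cycling replicate 1 or 3 or GNF-7 replicate 1 (0.05 to 0.08).

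MARS1 (-0.04), NARS1 (0.06) and TARS1 (-0.04) were not called, and their libraries lay near the cycling ones. EPRS1 (-0.09, edgeR adjusted p 0.0432) and LARS1 (-0.13) were called slightly lower. With scaling by total counts or with a filter at 5 CPM, which shift all members up, EPRS1, LARS1, MARS1 and TARS1 were at or above the cycling level (0.02 to 0.17), so no direction is given for them. The call of EPRS1 was also lost without cycling replicate 2 or 3 or GNF-7 replicate 2 or 3 (-0.04 to -0.09). FARSB (-1.24), FARSA (-0.74), KARS1 (-0.69), RARS1 (-0.62), VARS1 (-0.54), QARS1 (-0.50) and HARS1 (-0.23) were below cycling cells, but HARS1 was no longer called with total counts (-0.08) or the filter (-0.02). CARS2 (0.63) was the 1 mitochondrial gene above them, and MARS2 (-1.27), NARS2 (-1.12), YARS2 (-1.09) and LARS2 (-1.07) were at 0.415 to 0.476 of the cycling level. EEF1E1 was at 11.2, 9.67 and 9.77 against 27.1, 26.8 and 27.4 CPM (-1.41).

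**Figure D5:**
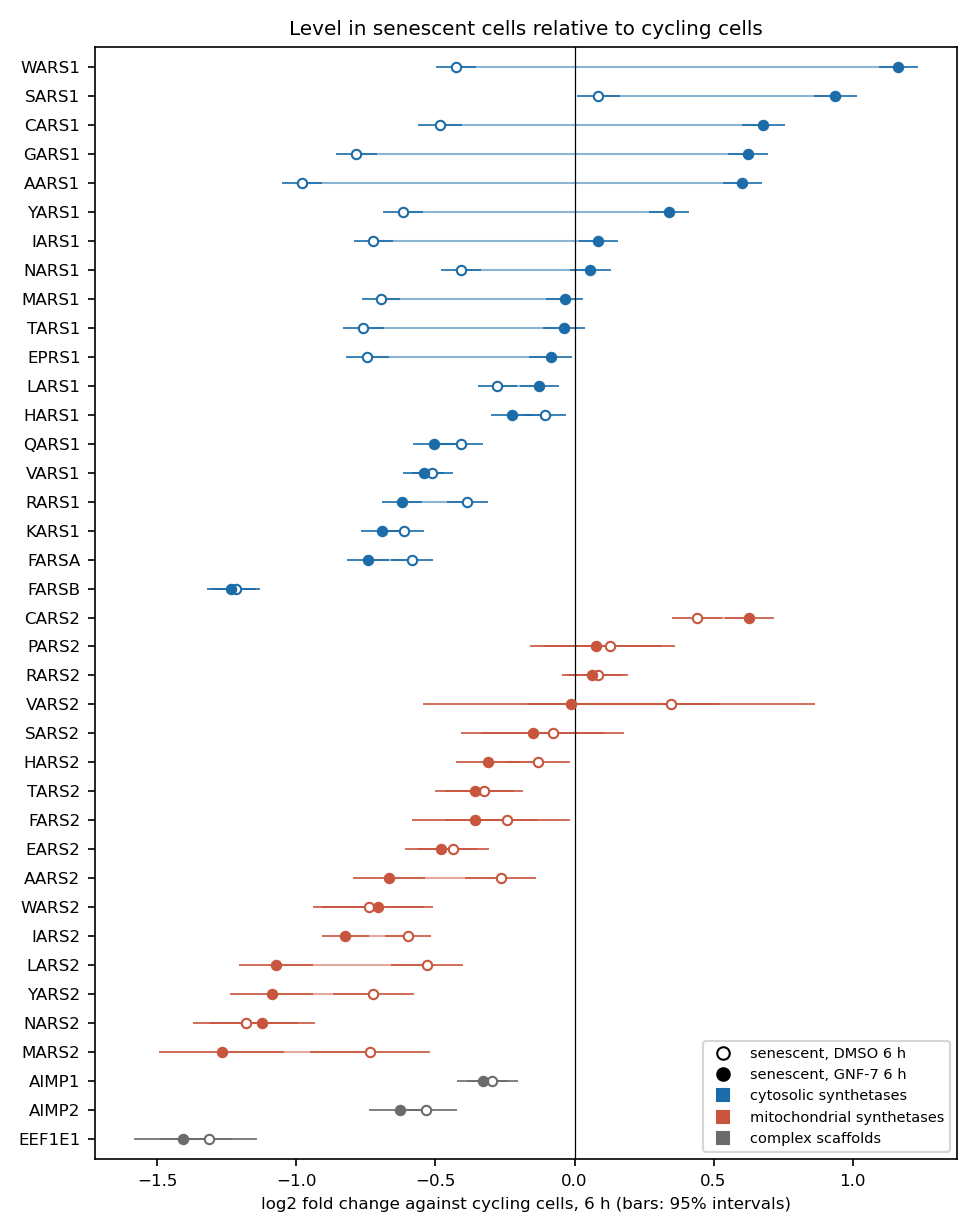
Log2 fold change of each member against cycling cells at 6 h, in senescent cells with vehicle (open) and with GNF-7 (filled), with bars for 95% intervals. Filled points of 7 cytosolic genes and of CARS2 are called to the right of 0, while FARSB, MARS2, NARS2, YARS2, LARS2 and EEF1E1 lie left of -1.

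Time in vehicle moved few members. Between 6 h and 24 h in senescent cells, 0 of 38 rose by edgeR (3 at an unadjusted p under 0.05, HARS1, QARS1 and SARS1, and 0 by DESeq2 or limma voom) and 6 fell, where 9.26% of all genes were called higher and 9.29% lower. With scaling by total counts, 12.5% of the genes called were higher ones, against 49.9% here, and 13 cytosolic and 6 mitochondrial synthetases were called lower. YARS1 went from 132, 139.5 and 140.4 to 122, 124 and 119 CPM (log2 fold change -0.18, SE 0.038, edgeR adjusted p 0.000333), EPRS1 from 167, 172 and 178 to 155, 154 and 151 CPM (log2 fold change -0.17, SE 0.041, edgeR adjusted p 0.00139) and IARS1 from 238, 249 and 241 to 224, 219 and 224 CPM (log2 fold change -0.13, SE 0.036, edgeR adjusted p 0.00797). MARS2 went from 10.2, 8.78 and 8.29 to 6.96, 6.38 and 6.70 CPM (log2 fold change -0.45, SE 0.118, edgeR adjusted p 0.00398) and PARS2, for proline, from 8.24, 7.70 and 8.01 to 5.71, 6.56 and 5.42 CPM (log2 fold change -0.44, SE 0.123, edgeR adjusted p 0.00726). AIMP2 went from 37.4, 36.7 and 37.4 to 33.5, 29.7 and 30.03 CPM (log2 fold change -0.26, SE 0.06, edgeR adjusted p 0.000987). In all 6 the 24 h libraries were below those at 6 h. The same held for FARSB, GARS1, LARS1, MARS1, NARS1, RARS1, WARS1 and LARS2, which were not called. In AARS1, HARS1, QARS1 and SARS1, also not called, the 24 h libraries were all above. Such a gap therefore does not set the 6 apart. Without 6 h replicate 2, 6 h replicate 1 and 24 h replicate 3 in turn, the calls of IARS1 (-0.11), MARS2 (-0.35) and PARS2 (-0.38) were lost. Without 24 h replicate 1 a fall of GARS1 was called (-0.12).

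Levels were compared between genes only per kilobase of merged exon (GENCODE 29). That length joins all annotated exons of a gene, which need not all be in the transcripts of these cells. It was 10037 bases for CARS1, 6358 for WARS1 and 2435 for FARSA. Its part in the order of the genes was not tested, and the SDs between libraries do not measure it. In cycling cells the cytosolic synthetases ran from 14.2 CPM per kb (CARS1) to 97.2 (FARSA), followed by NARS1 at 90.7, and the mitochondrial ones from 0.168 (VARS2) to 48.2 (IARS2). With GNF-7 at 24 h the order was another one. GARS1 was highest, at 148 ± 6.87 CPM per kb (SD, n = 3), before NARS1 at 105 ± 4.83 and then AARS1 at 97.3 ± 0.48, and each gap exceeded the SDs of its neighbours. WARS1 went from 22.1 ± 0.239 in cycling cells, below 16 other cytosolic synthetases, to 85.3 ± 1.78. FARSA, highest in cycling cells, was at 41.7 ± 0.371. Its partner subunit FARSB stood at 41.9 ± 0.952 in cycling cells and 11 ± 0.0703 with GNF-7 at 24 h, well below FARSA in both. The mitochondrial synthetase next below IARS2 in cycling cells was RARS2, at 16.4 ± 0.0876.

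The other genes of tRNA charging were read from a list of 20. EEF1G, which was not tested, had at most 1 count. It shares 2714 of its 2716 exon bases with AP002990.1 on its own strand, and the effect of that overlap on its count was not tested. The other 19 genes were tested. With GNF-7, 4 rose and 2 fell at 6 h, and 8 rose and 3 fell at 24 h, where 17.9% and 29.3% of all genes were called higher and 21.4% and 29.7% lower. XPOT, the exportin that carries tRNA out of the nucleus, rose from 136, 142 and 138 to 279.8, 272 and 277 CPM at 6 h (log2 fold change 0.99, SE 0.036, edgeR adjusted p 3.03e-33) and from 131, 134 and 131 to 337, 345 and 342 CPM at 24 h (log2 fold change 1.37, SE 0.036, edgeR adjusted p 5.7e-41). SEPSECS, which completes selenocysteine on its tRNA, rose by 0.35 and 0.60. The largest falls were those of GCN1 (-0.31), the ribosome-bound activator of GCN2, and TUFM (-0.13), the mitochondrial elongation factor that carries charged tRNA, at 6 h. At 24 h they were those of PPA1 (-0.73), which removes the pyrophosphate that charging releases, and again GCN1 (-0.43). In senescence 15 of the 19 fell and 1 rose, against 34.4% and 35.6% of all genes, with XPOT at -1.33. Of the reference genes, ATF4 rose by 1.25 and 1.67 with GNF-7 and fell in senescence (-0.84), while DDIT3, named above beside MARS1, rose in both (2.72, 3.02 and 1.19). ASNS, an ATF4 target that makes asparagine, rose by 3.00 and 3.49 from 0.927 to 1.53 CPM in vehicle. It shares 1985 bases of exon with AC079781.5 on its own strand, and the effect of that overlap on its level was not tested. EIF2AK4 was not called at 6 h (-0.03) and fell at 24 h (-0.15).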

How the data were processed

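The deposited data are 1 table in which the authors give raw read counts by Ensembl gene for 15 libraries of HT-1080 cells, without normalization. A stranded mRNA kit was used, per the labels' protocols. The submitters' processing notes name bcl2fastq 2.20.0.422, STAR 2.7.9a, featureCounts 1.5.1 and the build GRCh38, while the annotation release and the strand setting of the counting are not given in the sources used here. Of 60673 rows, 3 were left out because 1 entry was broken, which left 60670 genes. Columns were matched to libraries by the library names in the labels. Each pair of replicates differed by more than sampling noise in a chi-square test, so no library was counted once for 2.

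Tests were made with edgeR's quasi-likelihood method (edgeR 4.0.16, R 4.3.3, robust) on the counts after filterByExpr (18563 genes) and TMM scaling, in 1 fit of all 15 libraries with a term per group. Benjamini-Hochberg adjustment of p-values ran over all genes tested, and genes were called at an adjusted p under 0.05. The biological coefficient of variation was 4.64%. CPM values use the TMM-scaled library sizes, SD is over 3 libraries, and the standard error (SE) was taken from the log2 fold change and its F statistic, as the ratio of the first to the root of the second. The code was tested on simulated data. Gene positions, exon overlaps and merged exon lengths came from GENCODE 29 on GRCh38, and promoter windows from RefSeq on GRCh38.p14.

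The members and lists were chosen with earlier results of these data known. Library values were given, for each GNF-7 comparison, for up to 6 cytosolic and 4 mitochondrial genes with the largest rises among those called (of the mitochondrial genes CARS2 alone rose), the 3 scaffold genes and each member called against the majority of its list. For senescence and for time in vehicle they were given for the 3 largest falls and 3 largest rises called in each list. Other members with library values, the mitochondrial genes that fell with GNF-7 among them, were chosen after their values were seen, as were the grouping by enzyme class and complex. The alternatives were RLE size factors, total counts, TMM without mitochondrially encoded genes, DESeq2 1.42.0, limma voom (limma 3.58.1), a filter at a mean of 5 CPM, no filter, a replicate block, fits restricted to the groups of a contrast and leaving out each library in turn.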

Additional observations from a re-analysis of the deposited data

Results flagged for a closer look

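For 16 members the effect of GNF-7 against vehicle differed between 24 h and 6 h by the test of the interaction (edgeR adjusted p under 0.05), given here as the log2 effect at 24 h minus that at 6 h. Of the 38 members 8 were called higher and 8 lower, where 12.8% of all genes tested were called higher and 18.0% lower. Of the 16 mitochondrial synthetases 1 was called higher and 3 lower, which does not exceed these shares by much in either direction. Of the cytosolic synthetases that rose at both times, WARS1 gained 0.841, IARS1 0.425, GARS1 0.376, YARS1 0.281, MARS1 0.266, NARS1 0.251 and SARS1 0.153. Of the cytosolic genes that fell at 24 h, FARSB changed by -0.637, VARS1 by -0.483, FARSA by -0.41, HARS1 by -0.392 and RARS1 by -0.206. Of the mitochondrial synthetases, EARS2 changed by -0.373, HARS2 by -0.307 and IARS2 by -0.197, while CARS2 gained 0.239. HARS1 and HARS2 are neighbours with overlapping exons on opposite strands, so reads of one may be counted for the other.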

How the results depend on the processing

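Over the alternatives listed in the methods, the GNF-7 values of the members called or printed with a value (29 at 6 h and 36 at 24 h) kept their direction and side of the threshold in 414 of 435 cases at 6 h and 519 of 540 at 24 h, and the same 12 cytosolic genes stayed higher in each. Of the other members, all mitochondrial, 0 of 134 values at 6 h and 3 of 29 at 24 h (PARS2, 0.28 to 0.35) were called. Scaling by total counts and the filter at 5 CPM turned these signs. With total counts and with the filter in turn, the values in senescence were 0.027 and 0.045 for HARS1 and 0.001 and 0.019 for HARS2, and against cycling cells 0.06 and 0.118 for EPRS1, 0.018 and 0.077 for LARS1, 0.109 and 0.167 for MARS1, and 0.108 and 0.166 for TARS1 and for the cytosolic median. AIMP1 at 24 h became 0.017 and 0.09. With the filter alone FARSB (0.035), VARS1 (0.021) and AIMP1 (0.017) at 6 h and TARS2 (0.067) at 24 h turned. With only the groups compared, MARS1 was at 0.005 and TARS1 and the cytosolic median at 0.003 against cycling cells.

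Counts of members called moved as follows. Mitochondrial genes called higher numbered 2 with total counts and 3 with the filter in senescence, with GNF-7 at 24 h and against cycling cells, and 2 in senescence with only the groups compared. Under limma voom 0 cytosolic genes were called higher in senescence (1 at an unadjusted p under 0.05, and 1 with edgeR or DESeq2). The filter left 2 cytosolic genes lower at 6 h and made 2 higher in vehicle over time and 12 higher against cycling cells. Total counts made 13 cytosolic and 6 mitochondrial genes lower in vehicle over time. The cause was not tested.

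Leaving out each library in turn gave 0 to 1 cytosolic genes higher in senescence, 2 to 5 lower at 6 h, 1 to 2 mitochondrial genes higher at 24 h and 1 to 2 lower in vehicle over time. Values whose sign turned ranged from -0.05 to 0.036 (FARSB) and -0.082 to 0.008 (AIMP1) at 6 h, and from -0.003 to 0.065 (RARS2) and -0.092 to 0.001 (TARS2) at 24 h.

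The replicate numbers did not pair the libraries (correlations of same-numbered deviations from -0.134 to 0.178). With a replicate block 7481 genes were called at 6 h (7286 without) and 11031 at 24 h (10940 without), and 12 cytosolic genes were higher at both times. Counts limit VARS2 most, at 32 to 68 per library.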
